A study of Homo sapiens with 6 samples.

Results

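The transcripts described are those of 32 human genes of macroautophagy: the core machinery that builds an autophagosome and the receptors that bring cargo to it. They were taken by gene symbol from the deposited count table, where all 32 were matched among 35106 genes. The RNA came from HCT116 cells, a human colon carcinoma line with the genotype label WT, so every library comes from 1 established line. The untreated group has the treatment label none, with no solvent named, and the other group received curcumin, the yellow polyphenol of turmeric, at 30 µM for 24 h (the labels write μm, read here as micromolar), with 3 libraries in each group. Nothing in the labels says that the replicates were separate cultures, so p-values measure the spread between these libraries, which may be technical. In RNA from a whole culture, fewer cells that express a gene and less RNA per cell cannot be told apart.

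Macroautophagy wraps cytoplasm in a double membrane and delivers it to the lysosome. The ULK kinase complex starts the process, and a class III phosphatidylinositol 3-kinase complex built on PIK3C3 (VPS34) and BECN1 marks the growing membrane with the lipid PI3P, which WIPI proteins read. ATG2 proteins bring in lipid and ATG9A carries membrane. Ubiquitin-like conjugation enzymes then attach ATG8 proteins (the LC3 and GABARAP families) to the membrane, and cargo receptors such as SQSTM1 (p62) hold ubiquitinated cargo against them. In epithelial cells the pathway removes aggregated proteins and damaged organelles. Since autophagy consumes ATG8 proteins and SQSTM1 as it runs, transcript levels are not a measure of its rate.

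The libraries held 16663562 to 20311769 counts. The 100 most abundant genes took 18.9 to 22.7% of the counts of untreated libraries and 39.9 to 43.3% of those of treated ones, and the balance of higher and lower genes depends on the scaling between libraries. Values below are CPM, counts relative to a library size that was adjusted with edgeR's TMM factors (1.30 to 1.34 without and 0.716 to 0.804 with curcumin), and each rise or fall is relative to the other transcripts. With library size alone the median log2 fold change of all genes was −0.84, in place of −0.037, and members are given on that scale where it changes their call. Of 8 colon epithelial markers, 6 passed the filter on low counts, and the list summed to 4120 to 4840 CPM without and 7270 to 8480 CPM with curcumin, while CDX1 and VIL1 stayed under 1 CPM throughout. That sum was carried by keratins (KRT8 1944 and 4657 CPM in the group means), whereas CLDN4 of the same list fell from 327 to 42.0 CPM (adjusted p = 4.3e-05) and CDH1 was not called. The 5 leukocyte markers summed to 0.411 to 0.607 CPM without and 12.4 to 31.2 CPM with curcumin, the latter nearly all CD14, with CD3E at 0 and PTPRC under 1 CPM in every library. The 3 endothelial markers went from 1.36 to 2.20 CPM up to 8.30 to 28.1 CPM, the latter mostly PECAM1, with CDH5 under 1 CPM in every library. The 5 fibroblast markers summed to 25.7 to 30.7 and 15.5 to 38.7 CPM, nearly all of it COL1A1. The part of these marker changes in the results below was not tested.

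On the TMM scale, treated cells held relatively more transcript of ATG8 proteins, of 4 of the 7 conjugation genes and of the receptor SQSTM1. They held relatively less of the kinases ULK1 and PIK3C3 and of ATG14, the subunit that targets PIK3C3 to autophagosome sites. With library size alone, 1 of the 4 measured ATG8 genes and 0 of the 7 conjugation genes were called higher. Of the 32 members, 31 passed the filter. By edgeR's quasi-likelihood test at a Benjamini-Hochberg adjusted p under 0.05 over all 13718 genes tested, 14 members rose and 6 fell. That is 45.2% higher and 19.4% lower, beside 27.2% and 28.9% of all genes tested. The share called in either direction, 64.5%, lay near the 56.1% of all genes. The groups did not overlap for 23 of the 31 members (74.2%, beside 64% of all genes). The median log2 fold change was 0.10 over the members and −0.037 over all genes; it was 0.17 over the members without untreated replicate 1. Untreated replicate 2 was the lowest library of its group for 20 of the 31 members. The 11 members not called had log2 fold changes of −0.72 to 0.34.

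The balance differed on other scales. With library size alone, 3 members were higher and 18 lower (9.68% and 58.1%, beside 9.62% and 56.5% of all genes, of which 66.1% were called in all). When the top 100 genes by abundance were left out of the library size, 8 were higher and 12 lower (25.8% and 38.7%, beside 18.4% and 40.9% of all genes, 59.2% in all). With each library's trend with transcript length removed, 15 rose and 4 fell (48.4% and 12.9%, beside 25.6% and 22.1% of all genes, 47.6% in all). SQSTM1, GABARAP and ATG101 were called higher, and ULK1 and ATG14 lower, in all 17 alternative analyses of each gene.

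**Figure D1:**
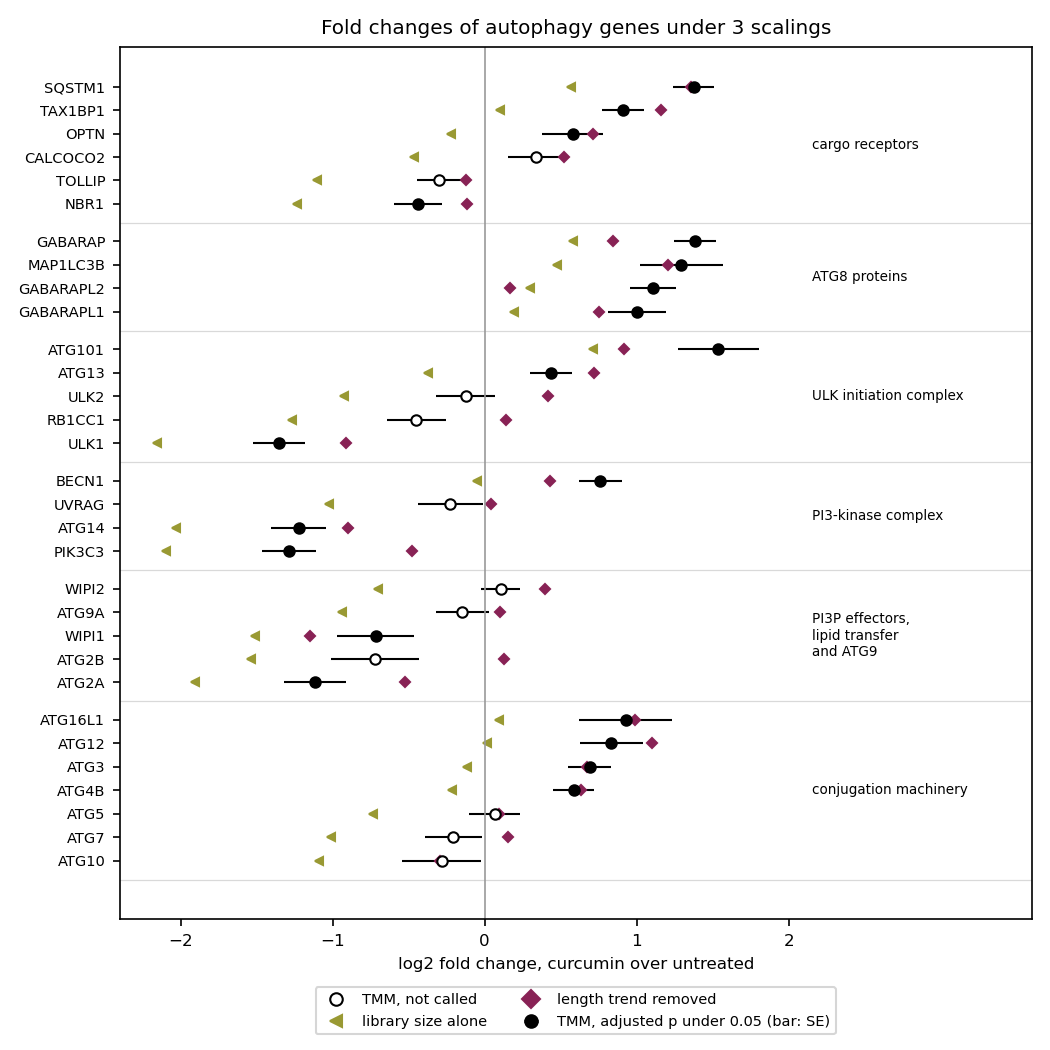
Log2 fold change (curcumin over untreated) of the 31 tested members by role, with 3 libraries in each group. Circles give the TMM-scaled fit with its standard error, filled where the adjusted p is under 0.05; triangles give library size alone and diamonds the fit with the length trend removed. SQSTM1, GABARAP and ATG101 lie above 0, and ULK1 and ATG14 below 0, on all 3 scales.

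The promoters of these 5 genes are shown because their calls held in every alternative, with that of ATG3. Among the 29 members with a promoter to search, only ATG3 held the full core of the TFEB-bound CLEAR element in it. Each promoter runs 5′ to 3′ on the gene's strand from 250 bases before to 50 after a RefSeq transcript start (GRCh38.p14). Capitals mark matches, on either strand, to TCACGTGA (the CLEAR core), CACGTG (the E-box, which lies within the CLEAR core), GAANNTTC (a heat shock element core) or TGANNNNGC (a loose form of the antioxidant response element core, called the antioxidant core below). RefSeq lists 3 starts for SQSTM1, and the only one of them with a match is shown.
SQSTM1, chr5:179820655-179820954 (+): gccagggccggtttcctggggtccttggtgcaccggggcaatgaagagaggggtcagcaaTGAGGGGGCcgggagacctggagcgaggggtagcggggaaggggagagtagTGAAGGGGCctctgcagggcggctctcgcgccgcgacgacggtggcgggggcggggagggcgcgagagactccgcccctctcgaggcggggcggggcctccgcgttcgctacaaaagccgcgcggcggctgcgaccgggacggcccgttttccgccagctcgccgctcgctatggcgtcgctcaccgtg
GABARAP, chr17:7242400-7242699 (−): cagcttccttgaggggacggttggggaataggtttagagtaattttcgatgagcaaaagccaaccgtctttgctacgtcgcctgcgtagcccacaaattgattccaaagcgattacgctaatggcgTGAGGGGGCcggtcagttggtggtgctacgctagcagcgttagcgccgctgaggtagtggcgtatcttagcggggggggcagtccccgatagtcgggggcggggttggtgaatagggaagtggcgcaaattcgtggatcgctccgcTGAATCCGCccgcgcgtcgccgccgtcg
ATG101, chr12:52069728-52070027 (+): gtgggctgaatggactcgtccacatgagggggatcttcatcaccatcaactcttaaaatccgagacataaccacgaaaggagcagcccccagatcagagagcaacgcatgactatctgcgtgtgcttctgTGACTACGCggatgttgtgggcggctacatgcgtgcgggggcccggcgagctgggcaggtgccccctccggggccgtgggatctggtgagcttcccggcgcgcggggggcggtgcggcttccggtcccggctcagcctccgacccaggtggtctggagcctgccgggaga
ULK1, chr12:131894372-131894671 (+): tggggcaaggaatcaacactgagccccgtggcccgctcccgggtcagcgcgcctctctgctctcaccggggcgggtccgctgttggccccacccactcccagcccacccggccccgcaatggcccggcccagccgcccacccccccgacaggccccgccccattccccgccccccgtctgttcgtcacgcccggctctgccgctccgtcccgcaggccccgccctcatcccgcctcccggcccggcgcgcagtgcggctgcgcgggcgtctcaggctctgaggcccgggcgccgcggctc
ATG14, chr14:55411781-55412080 (−): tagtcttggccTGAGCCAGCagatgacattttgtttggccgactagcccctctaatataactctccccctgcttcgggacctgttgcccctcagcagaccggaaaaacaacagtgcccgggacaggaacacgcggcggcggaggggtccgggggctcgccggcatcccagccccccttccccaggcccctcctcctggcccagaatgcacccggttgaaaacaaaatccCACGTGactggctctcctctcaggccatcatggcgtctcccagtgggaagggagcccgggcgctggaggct
ATG3, chr3:112561913-112562212 (−): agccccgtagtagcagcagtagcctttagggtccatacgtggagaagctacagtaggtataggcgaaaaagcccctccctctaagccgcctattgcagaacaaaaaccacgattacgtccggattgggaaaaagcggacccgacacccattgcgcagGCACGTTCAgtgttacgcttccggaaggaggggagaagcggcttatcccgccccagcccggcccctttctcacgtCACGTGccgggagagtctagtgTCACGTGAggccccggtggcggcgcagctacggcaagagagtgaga
Of the members, 29 had a promoter in the RefSeq table, 37 promoters in all. The antioxidant core was found in 40.5% of these and in 41.84% of all 35114 promoters of 300 bases, the E-box in 5.4% and 7.26%, the heat shock core (in GABARAPL2 and TAX1BP1) in 5.4% and 6.77%, and the CLEAR core in 2.7% and 0.98%, the former being ATG3 alone. The promoters shown for the rising SQSTM1 (its start chosen for the match), GABARAP and ATG101 each hold a match to TGANNNNGC. So does that of the falling ATG14, while that of ULK1 holds none of the 4 motifs. A match is a description of the letters in the window.

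Among the 6 cargo receptors 3 rose, 1 fell and 2 were not called. Of all genes tested 27.2% rose and 28.9% fell, the shares beside which the counts of each role group stand. The receptors had a median log2 fold change of 0.46, or 0.26 without untreated replicate 2. On library size alone their median was −0.34, and with the length trend removed 0.62. SQSTM1, the p62 scaffold that gathers ubiquitinated proteins (ENSG00000161011, chromosome 5, 179806398 to 179838078 in GENCODE 29 on GRCh38, 8 exons in its longest coding transcript), held 343, 308 and 341 CPM in the untreated libraries and 829, 875 and 867 CPM in the treated ones. The groups lay far apart, each within a narrow range, and SQSTM1 rose 2.59-fold (log2 1.37 ± 0.13 SE, adjusted p = 2.9e-05). Its exons overlap those of MRNIP on the opposite strand over 20.7% of their bases, and MRNIP was 19.9 and 20.1 CPM (untreated and treated means); whether counting used the strand is not known here. TAX1BP1, a ubiquitin-binding receptor of the same family as CALCOCO2, held 85.0, 74.8 and 78.8 CPM untreated and 142, 138 and 168 CPM treated, with no overlap. It rose by 0.91 ± 0.14 (adjusted p = 0.00041), with no call on library size alone (0.10, adjusted p = 0.56).

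OPTN (optineurin), a receptor for mitochondria and bacteria that TBK1 phosphorylates, held 38.6, 27.8 and 46.6 CPM untreated and 54.0, 63.2 and 51.8 CPM treated. The treated libraries were all above the untreated ones, by a small margin between untreated replicate 3 and curcumin replicate 3. Exons of CCDC3 on the opposite strand overlap 2.9% of those of OPTN, and CCDC3 was 19.8 CPM untreated and 41.8 CPM treated. The rise of OPTN (0.58 ± 0.20, adjusted p = 0.031) rested on 4 libraries, being lost when untreated replicate 1 or 2 (adjusted p = 0.082 and 0.0885) or curcumin replicate 1 or 2 (0.051 and 0.13) was left out, fell short with the top 100 genes out of the library size (0.21, adjusted p = 0.397) and turned to −0.22 on library size alone. NBR1, a receptor that works beside SQSTM1, held 102, 78.8 and 104 CPM untreated and 75.3, 71.6 and 64.2 CPM treated. Its groups did not overlap but came close at untreated replicate 2. The fall of NBR1 (−0.44 ± 0.16, adjusted p = 0.036) was lost in 5 of 6 analyses that left out 1 library (adjusted p = 0.11 and 0.10 without untreated replicates 1 and 3, 0.052, 0.086 and 0.071 without curcumin replicates 1, 2 and 3), and with the length trend removed (−0.12, adjusted p = 0.57).

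CALCOCO2 (NDP52), a receptor for bacteria and mitochondria, held 108, 68.8 and 112 CPM untreated and 122, 126 and 117 CPM treated. Treated libraries were all the higher, yet untreated replicate 2 lay far below the other two and CALCOCO2 was not called (0.34 ± 0.19, adjusted p = 0.15). It was called higher with the length trend removed (0.52, adjusted p = 0.036) and lower on library size alone (−0.46, adjusted p = 0.0497). TOLLIP, a ubiquitin-binding adaptor that also serves endosomal sorting, held 43.99, 41.6 and 46.2 CPM untreated and 37.0, 36.6 and 33.2 CPM treated. These groups were apart by a few CPM with no call (−0.30 ± 0.15, adjusted p = 0.10), though TOLLIP was called lower on library size alone (−1.10).

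All 4 measured ATG8 genes rose, by a median of 1.20 on the log2 scale. On library size alone their median was 0.39, and with the length trend removed 0.80. MAP1LC3A, the fifth of the list, had 0 counts in all 6 libraries, which allows up to 0.114 to 0.123 CPM without and 0.224 to 0.238 CPM with curcumin (3 counts per library, counting error only). MAP1LC3B, the LC3 gene most used as an autophagosome marker, held 179.5, 114.5 and 199.7 CPM untreated and 296, 347 and 568 CPM treated. All treated libraries were higher, with curcumin replicate 3 well above the other two, and MAP1LC3B rose by 1.29 ± 0.27 (adjusted p = 0.0024). The rise was 0.97 without that library (adjusted p = 0.0043) and was not called on library size alone (0.47, adjusted p = 0.10). Its near-identical copy MAP1LC3B2 was listed at 0.718 CPM untreated and 2.37 CPM treated, and how reads of the pair were shared out is not known.

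GABARAP, the founding member of the other ATG8 branch (ENSG00000170296, chromosome 17, 7240014 to 7242770, 4 exons), held 72.5, 64.1 and 63.1 CPM untreated and 179.9, 181 and 161 CPM treated. Neither group spread much, and GABARAP rose 2.61-fold (1.38 ± 0.14, adjusted p = 3.3e-05). The overlapping gene AC120057.2 shares 30.5% of the exonic bases of GABARAP on the same strand and was listed at 0.507 and 6.12 CPM, so reads of the pair may have been shared. GABARAPL2 held 47.5, 39.2 and 37.4 CPM untreated and 85.4, 87.8 and 93.9 CPM treated. Its groups did not overlap and it rose by 1.11 ± 0.15 (adjusted p = 0.00019), which was no longer called after removal of the length trend (0.17, adjusted p = 0.35) or on library size alone (0.30, adjusted p = 0.12). GABARAPL1 held 34.8, 24.3 and 36.9 CPM untreated and 56.4, 62.9 and 73.1 CPM treated. It rose by 1.004 ± 0.19 (adjusted p = 0.0015), again not on library size alone (0.19, adjusted p = 0.38).

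The shares of the ATG8 genes in their summed level overlapped between the groups for 3 of the 4. As a share of the 4 genes' summed CPM per kilobase, a measure that the scaling between libraries cannot move, MAP1LC3B took 38.5 ± 6.15% without and 39.4 ± 8.04% with curcumin (SD, n = 3). GABARAP took 26.2 ± 3.35% and 29 ± 5.68%, GABARAPL2 26.5 ± 3.72% and 24 ± 2.24%, and GABARAPL1 8.82 ± 0.810% and 7.50 ± 0.209%. Only for GABARAPL1 did the libraries of the groups not overlap, at 8.05 to 9.67% against 7.32 to 7.73%. The 4 shares were not tested.

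**Figure D2:**
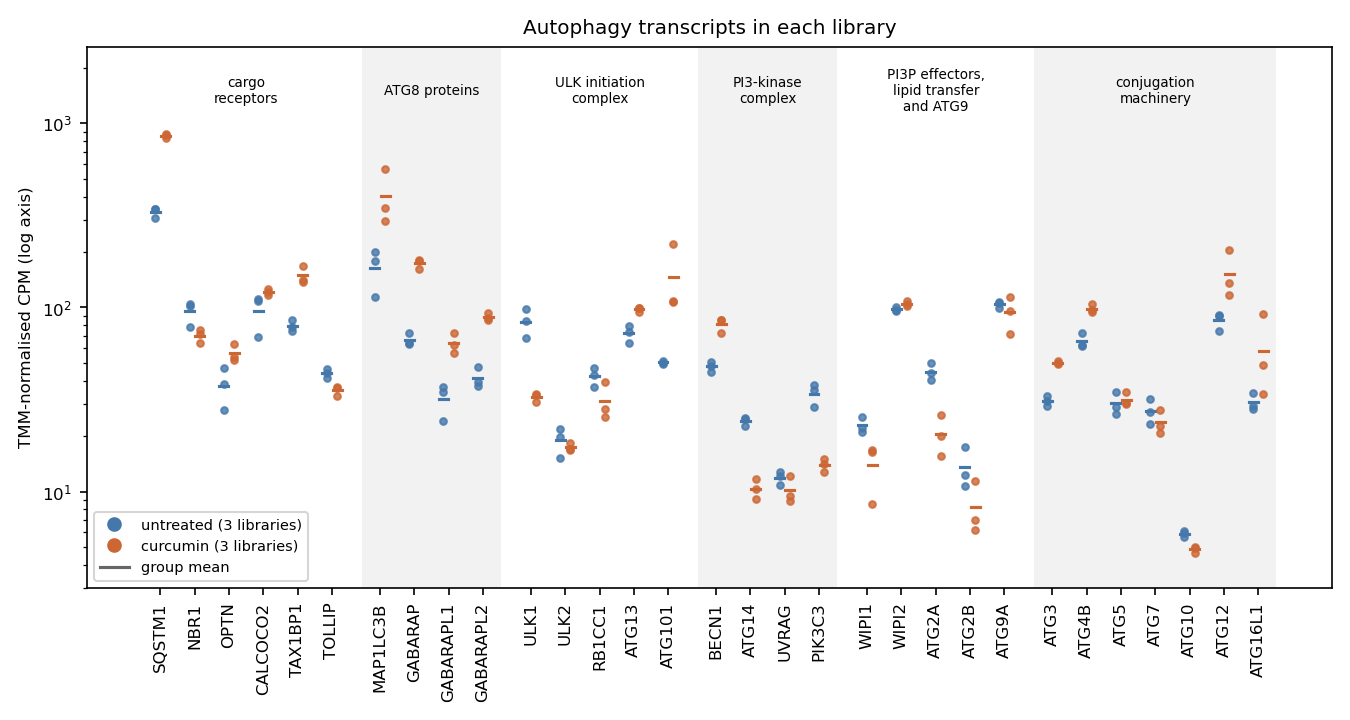
TMM-normalised CPM (log axis) of the 31 tested members in each library by role. Points are libraries, 3 in each group, and short lines are group means. All treated libraries lie above the untreated ones for SQSTM1 and the ATG8 proteins and below them for ULK1, ATG14 and PIK3C3.

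The ULK initiation complex did not move as a unit: 2 of its 5 genes rose, 1 fell and 2 were not called (median −0.13, or −0.023 and −0.28 without untreated replicates 1 and 2). On library size alone the complex had a median of −0.93, and with the length trend removed 0.42. ULK1, its kinase (ENSG00000177169, chromosome 12, 131894651 to 131923167, 28 exons), held 84.3, 68.2 and 98.3 CPM untreated and 33.6, 30.8 and 33.8 CPM treated. Every treated library lay far below the lowest untreated one, and ULK1 fell 2.56-fold (−1.35 ± 0.17, adjusted p = 0.00012). ATG101, which stabilises ATG13 (ENSG00000123395, chromosome 12, 52069246 to 52077494, 4 exons), held 49.5, 49.9 and 51.5 CPM untreated and 107, 109 and 222 CPM treated. The untreated values were nearly equal, and curcumin replicate 3 held far more than the other treated libraries. ATG101 rose by 1.54 ± 0.27 (adjusted p = 0.00079), and by 1.10 without curcumin replicate 3 (adjusted p = 0.0001). An antisense gene, AC025259.1, overlaps 19.2% of the exonic bases of ATG101 and was not analysed here.

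ATG13, the adaptor that joins ULK1 to the complex, was 72.3 ± 7.82 CPM untreated and 97.8 ± 3.31 CPM treated (SD, n = 3). It rose by 0.43 ± 0.14 (adjusted p = 0.023). It lost its call when untreated replicate 1 or 2 (adjusted p = 0.0689 and 0.065) or curcumin replicate 2 (0.087) was left out and with no filter (0.0975). With the top 100 genes out of the library size ATG13 stood at 0.068 (adjusted p = 0.706), and on library size alone ATG13 was called lower (−0.37, adjusted p = 0.049). ULK2, the second ULK kinase, was 19.0 ± 3.44 CPM and 17.4 ± 0.777 CPM, with overlapping groups and no call (−0.13 ± 0.19, adjusted p = 0.60). RB1CC1 (FIP200), the large scaffold of the complex, was 42.3 ± 5.05 and 31.0 ± 7.20 CPM (−0.45 ± 0.19, adjusted p = 0.072). Its treated libraries ran from 25.6 to 39.2 CPM, the highest being curcumin replicate 3, without which RB1CC1 was called lower (−0.65, adjusted p = 0.00722). On library size alone both were called lower, ULK2 at −0.93 (adjusted p = 0.0019) and RB1CC1 at −1.26 (adjusted p = 0.00012).

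In the PI3-kinase complex BECN1 rose while PIK3C3 and ATG14 fell, and UVRAG was not called (median −0.72). On library size alone the median of this complex was −1.53, and with the length trend removed −0.22. PIK3C3, the lipid kinase, held 35.4, 28.6 and 37.8 CPM untreated and 12.7, 14.0 and 15.01 CPM treated. The groups were well apart, and PIK3C3 fell 2.44-fold (−1.29 ± 0.18, adjusted p = 0.00022). With the length trend removed its fall was −0.48 (adjusted p = 0.037), and with the replicate block added to that fit it was not called (−0.47, adjusted p = 0.065). ATG14 (ENSG00000126775, chromosome 14, 55366392 to 55411858, 10 exons) held 25.2, 22.6 and 24.9 CPM untreated and 9.12, 11.7 and 10.3 CPM treated. Both groups were tight and apart, and ATG14 fell 2.34-fold (−1.22 ± 0.18, adjusted p = 0.00034). BECN1, the scaffold shared by the complexes, rose from 47.9 ± 2.94 to 81.1 ± 7.39 CPM (0.76 ± 0.14, adjusted p = 0.0013), though it stood at −0.048 on library size alone (adjusted p = 0.80). UVRAG, which replaces ATG14 in the endosomal complex, was 11.9 ± 0.978 and 10.2 ± 1.71 CPM (−0.23 ± 0.21, adjusted p = 0.39). On library size alone UVRAG was called lower (−1.02, adjusted p = 0.0024).

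No gene rose among the PI3P readers, lipid transfer proteins and ATG9A, where 2 of 5 fell and 3 were not called (median −0.72, or −0.46 without curcumin replicate 3). On library size alone the median of this group was −1.51, and with the length trend removed 0.10. ATG2A, a lipid bridge between the endoplasmic reticulum and the new membrane, held 40.2, 43.9 and 50.02 CPM untreated and 26.1, 20.2 and 15.6 CPM treated. It fell by 1.12 ± 0.21 on the log2 scale (adjusted p = 0.0012), but was not called after removal of the length trend (−0.52, adjusted p = 0.072). WIPI1 was 22.9 ± 2.37 CPM untreated and 13.9 ± 4.62 CPM treated, with 8.60 CPM in curcumin replicate 3 against 16.4 and 16.8 CPM in the other two. It fell by 0.72 ± 0.25 (adjusted p = 0.034), a call lost without untreated replicate 1, 2 or 3 (adjusted p = 0.063, 0.0612 and 0.10). Exons of ARSG on the opposite strand overlap 24.3% of those of WIPI1, and ARSG was 15.2 and 15.7 CPM.

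WIPI2, the reader that recruits ATG16L1, was 97.8 ± 2.75 and 105 ± 3.12 CPM (0.10 ± 0.13, adjusted p = 0.50), and ATG9A, the scramblase of the ATG9 vesicles, was 104 ± 3.99 and 94.0 ± 21.1 CPM (−0.15 ± 0.17, adjusted p = 0.49). On library size alone WIPI2 was called lower (−0.70, adjusted p = 0.0012) and higher with the length trend removed (0.40, adjusted p = 0.028). The gene AC068946.2 shares 38.8% of the exonic bases of ATG9A on the same strand and was listed at 1.61 and 4.53 CPM. ATG2B was 13.6 ± 3.56 and 8.21 ± 2.81 CPM (−0.72 ± 0.29, adjusted p = 0.056), a fall that passed the test when untreated replicate 2 or curcumin replicate 3 was left out (adjusted p = 0.042 and 0.0079). Library size alone gave a call of lower for both ATG2B (−1.54, adjusted p = 0.00052) and ATG9A (−0.94, adjusted p = 0.0014).

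Of the 7 conjugation genes 4 rose, 0 fell and 3 were not called (median 0.59). On library size alone their median was −0.22, and with the length trend removed 0.63. No member of this group changed by a fold of 2. ATG3, the E2-like enzyme that hands ATG8 proteins to lipid, rose from 31.1 ± 1.89 to 50.2 ± 1.05 CPM (0.69 ± 0.14, adjusted p = 0.0023). ATG4B, the protease that primes and releases ATG8 proteins, rose from 65.6 ± 5.74 to 98.5 ± 4.87 CPM (0.59 ± 0.14, adjusted p = 0.0046). ATG12, the ubiquitin-like protein joined to ATG5, rose from 85.4 ± 9.23 to 152 ± 46.3 CPM (0.83 ± 0.21, adjusted p = 0.0065), by 0.56 without curcumin replicate 3. None of these 3 was called on library size alone (−0.11, −0.22 and 0.013) or with the top 100 genes out of the library size (adjusted p = 0.083, 0.21 and 0.066). Opposite-strand exons of AP3S1, which went from 149 to 304 CPM, overlap 4.3% of those of ATG12. For ATG4B the overlap is 3.6% with THAP4 (51.9 and 62.4 CPM), and for ATG3 2.5% with SLC35A5 (22.4 and 9.12 CPM).

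ATG16L1, which places the conjugation complex on the membrane, was 30.5 ± 3.23 CPM untreated and held 33.9, 48.6 and 91.7 CPM in the treated libraries. The groups overlapped at curcumin replicate 1, and replicate 3 was far above the rest. The rise of ATG16L1 (0.93 ± 0.31, adjusted p = 0.026) was lost without curcumin replicate 3 (0.44, adjusted p = 0.071) and without untreated replicate 1 or 3 (adjusted p = 0.0905 and 0.078). ATG16L1 was also not called on library size alone (0.095, adjusted p = 0.779) or with the top 100 genes out of it (0.55, adjusted p = 0.123). ATG5, ATG7 (the E1-like enzyme) and ATG10 (the E2-like enzyme for ATG12) were not called. ATG5 was 30.1 ± 4.34 and 31.5 ± 2.68 CPM (0.066 ± 0.17), ATG7 27.4 ± 4.24 and 23.7 ± 3.49 CPM (−0.21 ± 0.19), and ATG10 5.90 ± 0.245 and 4.85 ± 0.193 CPM (−0.28 ± 0.26). On library size alone all 3 were called lower, at −0.73 (adjusted p = 0.0046), −1.01 (0.00065) and −1.09 (0.0039). Exons of VGLL4, which fell from 57.2 to 17.5 CPM, overlap 18.1% of those of ATG7 on the opposite strand. Exons of the ribosomal protein gene RPS23, which rose from 352 to 1942 CPM, overlap 6.9% of those of ATG10 on the opposite strand.

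Levels of different genes were set side by side per kilobase of the longest coding transcript. Whether that transcript is the one expressed was not tested, and fold changes ran with transcript length, as given below. On this measure SQSTM1 led in both groups, at 111 ± 6.63 untreated and 287 ± 8.31 CPM per kb treated (SD, n = 3). In untreated cells MAP1LC3B (61.2 ± 16.6), GABARAPL2 (41.3 ± 5.36), GABARAP (40.7 ± 3.14) and ATG101 (35.0 ± 0.723 CPM per kb) followed. GABARAPL2 and GABARAP differed by less than their spread. After curcumin the order was MAP1LC3B (150.2 ± 53.8), GABARAP (106 ± 6.87), ATG101 (101 ± 46.1) and GABARAPL2 (88.9 ± 4.34 CPM per kb), where MAP1LC3B and ATG101 varied too much for their places to be told apart from GABARAP. The lowest tested members were ATG2B (0.990 ± 0.260 and 0.60 ± 0.205 CPM per kb) and, in untreated cells, ATG10 (1.95 ± 0.0809 CPM per kb). After curcumin PIK3C3 (1.47 ± 0.122) lay next above ATG2B, and ATG10 (1.60 ± 0.0636 CPM per kb) differed from it by about their spread. ULK1 went from 15.7 ± 2.84 to 6.16 ± 0.313 CPM per kb. Its partner ATG13 was 16.6 ± 1.80 untreated, within the spread of ULK1, and 22.5 ± 0.761 CPM per kb treated, while ATG101 lay above ULK1 in both groups.

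Ratios between partners within a library do not depend on the scaling between libraries. The pairs were chosen after the values were seen and are given with no test. ULK1 exceeded ULK2 per kilobase 4.35-, 5.07- and 5.61-fold in untreated and 2.07-, 2.06- and 2.24-fold in treated libraries. ATG13 stood at 1.07, 1.14 and 0.985 of ULK1 untreated and at 3.42, 3.94 and 3.61 treated. Relative to the transcripts of ULK2 and ATG13, that of ULK1 was lower in all 3 treated libraries, which restates the fold changes given above. BECN1 exceeded PIK3C3 6.39-, 7- and 5.69-fold untreated and 25.5-, 27.1- and 25.5-fold treated. BECN1 over ATG14 went from 4.44 ± 0.0931 to 17.6 ± 1.15 (SD, n = 3). These partners differ in length (2112 bases for BECN1, 9443 for PIK3C3 and 4742 for ATG14), and with the length trend removed their log2 fold changes were smaller in size, 0.43 for BECN1, −0.48 for PIK3C3 and −0.90 for ATG14. SQSTM1 over NBR1 went from 5.47 ± 0.543 to 19.1 ± 1.94, and TAX1BP1 over TOLLIP from 1.65 ± 0.105 to 3.85 ± 0.664. The groups did not overlap for any of these pairs, whereas they did for ATG2A over ATG2B (7.31 ± 1.36 and 5.98 ± 2.67) and for GABARAP over MAP1LC3B (0.702 ± 0.203 and 0.774 ± 0.277).

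**Figure D3:**
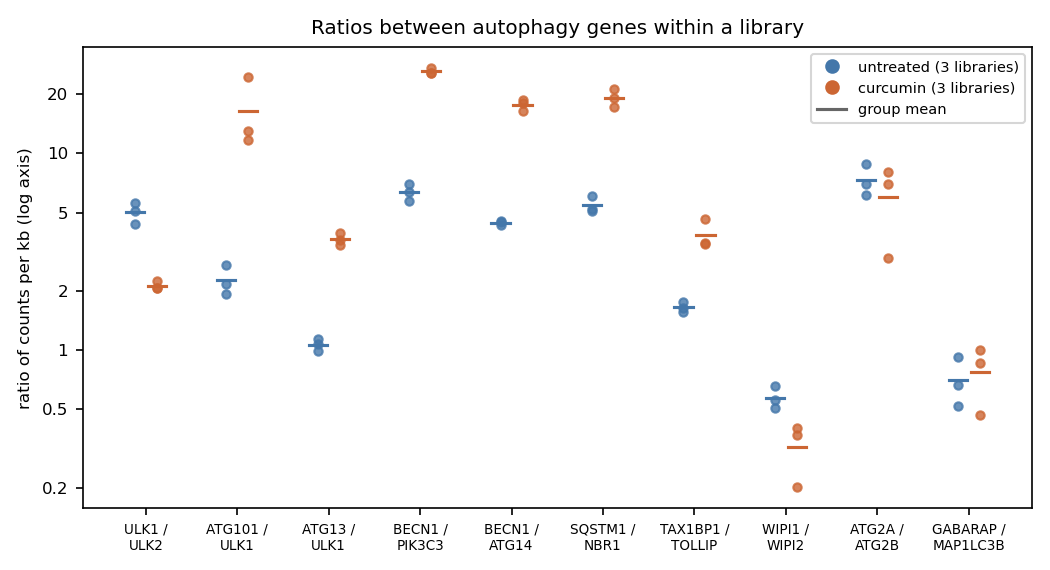
Ratio of counts per kilobase (log axis) between pairs of autophagy genes within each library, 3 libraries in each group, with group means as short lines. BECN1 over PIK3C3 and over ATG14, SQSTM1 over NBR1 and the ratios of ATG13 and ATG101 to ULK1 are higher in all treated libraries, and ATG2A over ATG2B and GABARAP over MAP1LC3B overlap.

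Shorter members had the higher fold changes, and so did shorter genes across the table. Over the 31 tested members, log2 fold change and log2 transcript length had a Spearman rho of −0.73 and a Pearson r of −0.67, beside −0.45 and −0.39 over 13101 tested protein-coding genes. These are descriptions across genes that share the same 6 libraries. Protein-coding genes were split by length into 5 groups of nearly equal size, whose median log2 fold changes ran from 0.81 in the shortest (207 to 1955 bases) through 0.26, −0.077 and −0.36 to −0.72 in the longest (from 5747 bases). All 4 members in the shortest group were called, GABARAP, GABARAPL2 and ATG101 higher and WIPI1 lower, and WIPI1 (1832 bases) lay at −1.52 from its group's median. Of all genes in that group 53.3% were higher and 8.78% lower. The 9 members of 2851 to 4005 bases had a median of 0.58, with 5 that rose and 0 that fell, beside 23% and 27% of all genes of that length, and SQSTM1 (2986 bases) 1.45 above the median of genes of that length. TAX1BP1 lay 1.26 and ATG12 1.19 above the median of theirs, whereas ULK1 and ATG14 lay at −0.998 and −0.868 from it. The 5 longest members (ULK2, RB1CC1, PIK3C3, ATG2A and ATG2B) had a median of −0.72, as had all genes of that length. The part of transcript length in these fold changes was not tested beyond the fit with its trend removed.

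**Figure D4:**
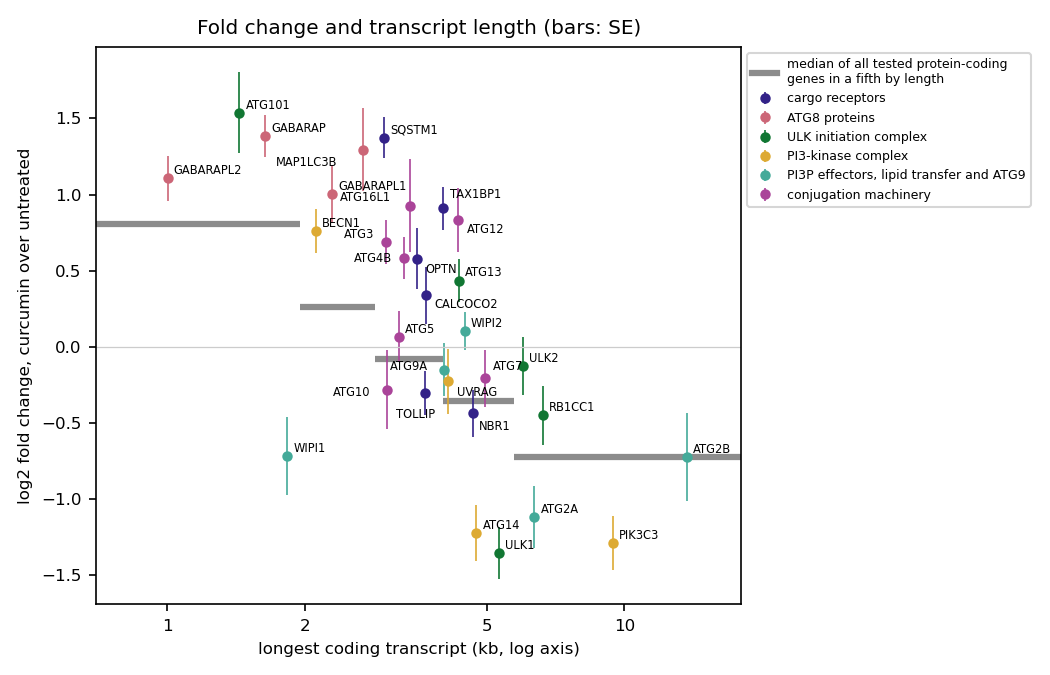
Log2 fold change (curcumin over untreated, with standard error) against the length of the longest coding transcript (log axis) for the 31 tested members, coloured by role. Grey bars are the medians of all tested protein-coding genes in 5 groups by length, cut at the edges of the axis. SQSTM1, TAX1BP1, ATG12, MAP1LC3B and ATG16L1 lie over 1 log2 unit above the bar at their length, and WIPI1 over 1 unit below.

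Further genes of the pathway were taken as 68 genes in 5 lists. Of the 67 tested, 13 rose and 27 fell, with a median of −0.18. Of all genes tested 27.2% rose and 28.9% fell. On library size alone 2 were higher and 48 lower (all genes 9.62% and 56.5%), and with the length trend removed 13 and 17 (all genes 25.6% and 22.1%). The membrane and nucleation list, with 1 that rose and 5 that fell of 11, held some partners of the PI3-kinase complex that fell beside PIK3C3. In the same list RUBCN (−0.20, adjusted p = 0.54) and SH3GLB1 (0.10, adjusted p = 0.57) were not called. The regulatory subunit PIK3R4 (VPS15) fell from 30.0 ± 8.67 to 11.8 ± 1.75 CPM (−1.35 ± 0.23, adjusted p = 0.00084) and NRBF2, which binds the ATG14 complex, from 17.6 ± 0.360 to 6.86 ± 1.10 CPM (−1.35 ± 0.20, adjusted p = 0.00036). AMBRA1, a BECN1 partner named after its values were seen, fell by 1.26 ± 0.25 (adjusted p = 0.0019), and WDR45 (WIPI4) rose by 0.92 ± 0.20 (adjusted p = 0.0029), with no call on library size alone (0.11) or with the length trend removed (adjusted p = 0.0847). Among ATG8, ATG4 and ATG16 relatives, 2 rose and 1 fell of 5 tested. ATG4D rose from 42.4 ± 2.62 to 76.9 ± 0.692 CPM (not called on library size alone, adjusted p = 0.78), the low MAP1LC3B2 rose, a call kept in 7 of 16 alternatives, and ATG4C fell from 8.97 ± 0.818 to 4.24 ± 1.45 CPM.

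Of 17 receptors of organelles and their partners, 4 rose and 6 fell (median −0.21). The mitochondrial proteins FKBP8 and PHB2 rose from 307 ± 36.0 to 876 ± 73.7 CPM and from 248 ± 16 to 660 ± 22.1 CPM (1.51 ± 0.15 and 1.41 ± 0.13). SEC62, a receptor for endoplasmic reticulum, and WDFY3 (ALFY), a scaffold for aggregates, fell by 0.998 ± 0.17 and 1.07 ± 0.22, neither called with the length trend removed (adjusted p = 0.12 and 0.32). Of 15 genes of fusion with the lysosome, 4 rose and 5 fell (median −0.14), near the 27.2% and 28.9% of all genes. Their median was −0.94 on library size alone and 0.12 with the length trend removed. VPS11 and VPS16 of the HOPS tether rose by 1.11 ± 0.15 and 0.79 ± 0.15, not on library size alone (0.30 and −0.0095), while their partner VPS18 fell from 47.4 ± 7.68 to 8.48 ± 2.93 CPM (−2.48 ± 0.26, adjusted p = 4.1e-05) and the transport adaptor FYCO1 from 37.2 ± 9.23 to 10.3 ± 1.12 CPM (−1.85 ± 0.22, adjusted p = 8.0e-05).

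Of 19 control genes 2 rose and 10 fell (median −0.47), with 0 and 14 on library size alone and 3 and 6 with the length trend removed (median −0.29). TFE3, a transcription factor of autophagy and lysosome genes, held 35.2 ± 8.64 CPM untreated and 87.0 ± 13.8 CPM treated (1.30 ± 0.21, adjusted p = 0.00048; 0.50, adjusted p = 0.051 on library size alone). Its relative TFEB, named after its values were seen, fell from 5.98 ± 0.379 to 2.60 ± 0.630 CPM (−1.20 ± 0.32, adjusted p = 0.0090), and MITF, named likewise, was low at 2.80 ± 0.726 and 2.02 ± 0.817 CPM with no call (adjusted p = 0.39; lower on library size alone, adjusted p = 0.0225). Per kilobase TFE3 exceeded TFEB 4.46 ± 0.909-fold in untreated and 27.0 ± 10.7-fold in treated libraries (SD, n = 3), with no overlap. RPTOR, the scaffold through which mTORC1 binds ULK1, fell from 94.2 ± 20.1 to 36.9 ± 4.08 CPM (−1.35 ± 0.19, adjusted p = 0.00022) and TP53INP1, a p53 target that binds ATG8 proteins, from 40.8 ± 7.84 to 6.31 ± 0.888 CPM (−2.69 ± 0.22, adjusted p = 1.5e-05). PRKAG1, a subunit of AMP-activated kinase, rose by 0.65 ± 0.16 (adjusted p = 0.0061), with −0.15 on library size alone and no call with the length trend removed (adjusted p = 0.44).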

How the data were processed

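RNA from 6 HCT116 samples, 3 untreated and 3 treated with curcumin, was sequenced after a SMARTer mRNA-Seq library preparation, per the labels' protocols. The authors deposited 1 table of estimated counts (expected counts) per gene with no scaling between libraries, and 51.6% of its nonzero values are not whole numbers. Which aligner, counter and annotation made it is not given in the sources used here. Mouse builds, GRCm38 and mm10, are listed in the submitters' processing notes, whereas all 35106 rows carry human Ensembl identifiers, of which 35003 were found in GENCODE 29. The table was read as human.

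Counts were rounded to whole numbers, passed through filterByExpr (at least 10 counts in enough libraries and 15 in total), normalised by TMM and tested with the quasi-likelihood test of edgeR 4.0.16 (R 4.3.3), curcumin against untreated, with Benjamini-Hochberg adjustment over all genes and a threshold of 0.05. The standard error of a log2 fold change was its size over the root of the F statistic. The floor given for MAP1LC3A covers counting error only, and reads carry no molecular identifiers. Standard errors come from the fit and include the spread between libraries. Between replicates the chi-square per degree of freedom was 11.2 to 74.7, so no pair differed by counting error alone. Separate preparations of the same RNA cannot be told from separate cultures in this way. Alternatives used RLE factors, library size alone, a library size that leaves out the top 100 genes, all genes unfiltered, genes averaging 50 counts or more, protein-coding genes only, a fold of at least 2, the replicate number as a block, each library's length trend removed (loess span 0.3), both of the latter, DESeq2 1.42.0, limma-voom (limma 3.58.1) and each library left out. The test was also run on simulated counts with far fewer changed genes, balanced between rises and falls. That run does not bear on the scaling between these libraries.

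Every member is described. Values in every library are given for receptors, ATG8 genes and called members with a log2 fold change of at least 1, and of each wider list up to 2 rising and 2 falling genes with the smallest p are named. Members and lists were chosen with earlier results of these data known.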

Additional observations from a re-analysis of the deposited data

How the results depend on the processing

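Calls rested mainly on the scaling. With library size alone 3 members were higher and 18 lower (9.68% and 58.1%), and 1320 and 7744 of all genes (9.62% and 56.5%). With the top 100 genes out of the library size, 8 members were higher and 12 lower (25.8% and 38.7%). Of all genes 2523 and 5604 were (18.4% and 40.9%). A fold of at least 2 left 6 higher and 4 lower of the 31 tested members, beside 2244 and 2386 of all genes (16.4% and 17.4%). With the replicate block added to removal of the length trend, 3 members were lower. With each library left out in turn, 11 to 13 members were higher and 4 to 7 lower, and 3253 to 3843 and 3369 to 4306 of all genes. DESeq2, limma-voom, protein-coding genes only and a mean of at least 50 counts changed the call of 0 of 31 members.

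Directions turned for 14 members. With library size alone OPTN stood at −0.22, CALCOCO2 at −0.46, ATG13 at −0.37, BECN1 at −0.048, WIPI2 at −0.70, ATG3 at −0.11, ATG4B at −0.22 and ATG5 at −0.73, and so did VPS16 (−0.0095) and PRKAG1 (−0.15). With the top 100 genes left out CALCOCO2 stood at −0.030, WIPI2 at −0.26 and ATG5 at −0.30. With the length trend removed ULK2 stood at 0.42, RB1CC1 at 0.14, UVRAG at 0.039, ATG2B at 0.12, ATG9A at 0.10 and ATG7 at 0.15, and with the replicate block added at 0.43, 0.13, 0.027, 0.12, 0.077 and 0.15. ATG5 stood at −0.014 with no filter. With libraries left out in turn ATG5 ran from −0.034 to 0.17 (below 0 without untreated replicate 3 or curcumin replicate 1) and ATG9A from −0.31 to 0.012 (above 0 without curcumin replicate 3). The cause was not tested.

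The replicate number does not pair the libraries by the labels, and deviations of same-numbered libraries from their group means correlated at 0.041, 0.031 and 0.135. Untreated replicate 2 correlated better with curcumin replicate 1 (0.050) than with its own number. The replicate block left 14 members higher and 8 lower, adding RB1CC1 (−0.47, adjusted p = 0.043) and ATG2B (−0.74, adjusted p = 0.019), with 3683 higher and 4011 lower genes. MAP1LC3A had 0 counts in every library, so no fold could be given for it.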
